A study of Daphnia magna with 36 samples.

Results

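Of 7680 probes on an array of the water flea Daphnia magna, 150 were taken as probes shifted under zinc sulphate and not under zinc oxide or silica nanoparticles. They were chosen on measured values. Arrays of one exposure were averaged, and each probe's median log ratio over exposures was taken in the 3 groups exposed at the LC25, an estimated lethal concentration. A member had an absolute median of at least 0.2 under zinc sulphate (ZnSO4) and under 0.2 with zinc oxide nanoparticles (ZnO NP) and with silica nanoparticles (labelled SiO or SiO2 NP). Of 5664 probes with values in at least 3 exposures of each of these groups, 677 met the rule, and the 150 with the largest absolute ZnSO4 medians were kept. Of these, 97 had a positive and 53 a negative ZnSO4 median. All LC25 values of the members are therefore given as descriptions, and members were tested only at the lower concentration.

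Zinc is an essential metal that serves as a cofactor of many enzymes and transcription factors, and its free level in cells is held low by transporters and by binding proteins such as metallothioneins. Zinc sulphate dissolves and supplies zinc ions, whereas zinc oxide particles can reach animals as particles and also release ions into the water. In crustaceans, dissolved zinc is known to disturb calcium uptake, and Daphnia filter and swallow suspended particles.

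The study compared whole adult females, 10 days old and pooled by 16, after 24 h at 25 °C with animals kept unexposed in the laboratory, on 36 arrays of 2 colours. ZnSO4 was given at 0.91 mg/L (LC25) and 0.13 mg/L (1/10 of the LC50, another such concentration; written 1/10 LC50). For ZnO NP the LC25 was 9.0 mg/L and the lower level 2.2 mg/L, and for SiO2 NP they were 5.1 mg/L and 1.4 mg/L. The LC25 groups held 5 exposures (ZnSO4), 4 (ZnO NP) and 4 (SiO2 NP), and the groups at 1/10 LC50 held 3, 4 and 3. The design text gives 3 exposures per condition, each with exchanged dyes, whereas the titles number up to 5, and each number was counted as 1 exposure. Of the 23 exposures, 13 were measured on a pair of arrays with the dyes exchanged and 10 on a single array. Animals of all groups came from one culture facility and shared food, age and sex, and a pool of whole animals cannot tell a change in the number of cells of one kind from a change in RNA per cell.

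Each value is the log ratio between exposed and unexposed animals on one array. The base of the logarithm, the normalization and the numerator are stated nowhere in the labels or the table, so values are read as log2. Ratios are called positive or negative, not higher or lower in exposed animals. Turning every sign would exchange the 97 and the 53. The probe names are plate positions, and 0 of them matched the gene table of the organism, so no gene or pathway is named. Arrays had values for 46.7% to 90.5% of the probes. Between 310 pairs of arrays of different exposures with the same dye orientation, 5 correlations lay below -0.3 (lowest -0.520, median 0.080). Between 307 pairs of opposite orientation 16 did (lowest -0.563, median -0.020). Pairs of both kinds mix toxicants and concentrations, so they cannot settle the direction between arrays. Of the 13 pairs of arrays of one exposure with exchanged dyes, 4 correlated below 0 over all probes. Whether exposures used the same unexposed RNA is not given either.

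The members were small shifts taken from one end of a wide distribution. Of the 5664 probes, 1985 (35%) had an absolute ZnSO4 median of at least 0.2, 1063 of these lay under 0.2 with ZnO NP, and 677 (12%) also with SiO2 NP. The 677 were mostly negative, 385 against 292. Their positive share of 43.1% was near the 40.7% of all 5664 probes. The 150 largest were mostly positive (64.7%). The last member taken had an absolute median of 0.385 and the first probe left out 0.383. The members reached up to 0.20 with ZnO NP and with SiO2 NP. Absolute ZnSO4 medians of at least 0.5 were found in 75 members (60 positive, 15 negative), and of at least 1 in 3. The positive members had a median of 0.54 (quartiles 0.45 and 0.63) and the negative members -0.44 (-0.51 and -0.41). The 677 fell to 415, 388 and 397 without ZnO NP exposure 1, 2 or 3 at the LC25. Of the 150 members 70, 72 and 71 were then chosen again. These settings also required a value in ZnO NP exposure 4, which only 3557 of the 5664 probes had. Without exposure 4, 125 of the 150 were chosen again. How much of the fall came from missing values was not tested.

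In 4 of the 5 ZnSO4 exposures at the LC25 both classes stood clearly apart, and in exposure 3 they were reversed. The median over the positive members was 0.58, 0.63, -0.26, 0.45 and 0.85 in exposures 1 to 5. Over the negative members it was -0.52, -0.46, 0.14, -0.42 and -0.44. Only exposure 4 was read on 2 arrays with exchanged dyes. Exposures 1, 2 and 3 had 1 array each, on which Cy5 labelled the exposed animals. Exposure 5 had 1 array, on which Cy3 labelled them. The reversal in exposure 3 thus rests on 1 array, although exposures 1 and 2 shared its labelling and were not reversed. The part of the dye in the reversal was not tested. Of 147 members with a value in exposure 3, 105 had the sign opposite to their own median there, 72 of 96 positive and 33 of 51 negative ones. Exposure 3 also correlated negatively over all probes with exposures 1, 2 and 5 (Pearson r = -0.154, -0.291 and -0.484) and positively with exposure 4 (0.154), while the other exposures correlated with each other at 0.128 to 0.476. The 5 exposures averaged 0.45 ± 0.42 (SD, n = 5) for the positive and -0.34 ± 0.27 (SD, n = 5) for the negative members. The spread between exposures was nearly as large as the shift itself. Over the 4 exposures without exposure 3 the averages were 0.63 ± 0.16 and -0.46 ± 0.044 (both SD, n = 4). The members were not chosen anew for these averages, and these 4 exposures had helped to choose and sign them. The size and small spread of the averages are therefore not independent of the choice. When the members were chosen without exposure 3, 871 probes met the rule, and of the 150 then kept 102 were the same, with 113 positive and 37 negative.

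Only a few members kept one sign throughout. One sign in every ZnSO4 exposure with a value was found in 19 members (12.7%), 10 positive and 9 negative, against 517 of the 5664 probes (9.13%). Exactly 1 exposure was opposite in 103 members, and in 81 of these it was exposure 3. Another 28 members were opposite in 2 exposures or more. The median SD between the ZnSO4 exposures was 0.50 for members and 0.32 for all 5664 probes. A value was found in all 5 exposures for 115 members, in 4 for 26 and in 3 for 9.

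The largest positive medians among members with 5 values were those of A1I19 and A5H13. A1I19 had 1.11, 1.12, -0.50, 0.12 and 1.75 in ZnSO4 exposures 1 to 5, a mean of 0.72 ± 0.90 (SD, n = 5). A5H13 had 0.88, 0.90, -0.45, 0.15 and 1.57, a mean of 0.61 ± 0.78 (SD, n = 5). Exposures 1, 2 and 5 were high in both probes, exposure 4 was near 0 and exposure 3 was negative. With ZnO NP at the LC25, A1I19 had 0.25, 0.025, -0.68 and 0.14, and A5H13 had 0.45, 0.19, -0.73 and 0.052. The low value was that of ZnO NP exposure 3 in both, so that a median close to 0 covered exposures that differed by more than 0.9. At ZnSO4 1/10 LC50, A1I19 had -0.24, -0.18 and -0.20, all negative, and A5H13 had 0.088, -0.24 and -0.17.

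Among negative members with 5 values the largest were P10BG12 and P11BE8. P10BG12 had -0.71, -0.97, 0.42, 0.011 and -0.66 under ZnSO4 at the LC25, a mean of -0.38 ± 0.58 (SD, n = 5). P11BE8 had -0.73, -0.71, 0.19, -0.15 and -0.59, a mean of -0.40 ± 0.41 (SD, n = 5). Exposures 1, 2 and 5 were low in both probes, and exposure 3 was positive. P11BE8 lay between -0.27 and 0.28 in all 18 exposures of the other groups, and P10BG12 between -0.49 and 0.45.

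Members named for keeping one sign in all 5 ZnSO4 exposures at the LC25, not for a small spread, were smaller or varied more elsewhere. P10CB4, the negative member whose ZnSO4 value closest to 0 was the farthest from it, had -0.40, -0.51, -0.22, -0.20 and -0.45, a mean of -0.36 ± 0.14 (SD, n = 5), with exposure 3 on the same side as the rest. Its ZnO NP values at the LC25 were -0.093, -0.59, -0.079 and -0.057, all negative as well. P12AC5, the positive member chosen in the same way, had 0.39, 0.84, 1.00, 1.66 and 0.46, a mean of 0.87 ± 0.51 (SD, n = 5). It ranged from -2.09 to 0.64 with ZnO NP at the LC25, where exposure 2 gave the lowest value, and from -1.14 to 0.36 with ZnO NP at 1/10 LC50.

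To see how far the choice carried over to a ZnSO4 exposure that it had not used, the rule was applied 5 times, each time without one of the ZnSO4 LC25 exposures. The 150 probes so chosen were then read in that exposure, each signed by its median in the others. The median signed value was 0.22 in exposure 1, 0.21 in exposure 2, -0.28 in exposure 3, 0.20 in exposure 4 and 0.25 in exposure 5. In the exposures used for the choice, the same probes had median absolute values of 0.54, 0.45, 0.61, 0.54 and 0.44. Over all probes with the values asked for, the median signed value was 0.090, 0.088, -0.099, 0.081 and 0.095, in the same order and direction. The sign carried over in 97 of 133, 90 of 132, 25 of 148, 112 of 149 and 94 of 142 chosen probes with a value, or 72.9%, 68.2%, 16.9%, 75.2% and 66.2%. Over all probes it carried over in 58.4%, 59.9%, 35.2%, 60.9% and 58.5%. The signed median in the exposure not used was lower than the median absolute value in those used, in every case. Choosing the probes by their largest medians favours such a drop. In exposure 3 the sign was turned. Read as Cy5 over Cy3, the left-out values ranged from -0.24 to 0.043, with a median of -0.029 against 0.21 as deposited.

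A median under 0.2 did not mean that single ZnO NP or SiO2 NP exposures lay under 0.2. At least 1 ZnO NP exposure at the LC25 reached 0.2 in absolute value in 147 of 150 members (98%), against 87.5% of the 3300 probes whose ZnO NP median lay under 0.2. In 86 members ZnO NP exposures reached 0.2 in both directions. The median SD between ZnO NP exposures was 0.42 for members and 0.25 for those 3300 probes. For SiO2 NP the share was 92.7% of members against 86.8% of 3609 probes, with median SDs of 0.25 and 0.21. Over 86 positive members, the median 95% confidence half-width of a fitted ratio at the LC25 was 0.45 for ZnO NP and 0.43 for SiO2 NP. The fitted ZnSO4 ratios of these 86 had a median of 0.45. Over 52 negative members the half-width was 0.31 in both groups, and the fitted ZnSO4 ratios had a median of -0.31. The half-widths were thus about as large as the fitted ZnSO4 ratios.

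In ZnO NP exposure 3 at the LC25 the positive members had a median of -0.38 and the negative members 0.18. In exposure 1 they had 0.22 and -0.077, in exposure 4 they had 0.14 and -0.061, and in exposure 2 both were slightly negative (-0.060 and -0.073). With SiO2 NP at the LC25, exposures 3 and 4 were also split in opposite ways, at -0.12 and 0.12 against 0.16 and -0.11. Outside the ZnSO4 LC25 group, the medians of both classes had opposite signs in 15 of 18 exposures. The positive class lay above the negative one in 11 of these 18 exposures and below it in 7. The rule used the LC25 exposures among them. At 1/10 LC50, where no value entered the choice, the signs were opposite in 9 of 10 exposures. At the LC25 the difference between the class medians was 0.79 ± 0.68 (SD, n = 5) for ZnSO4. It was -0.012 ± 0.38 with ZnO NP and 0.0056 ± 0.21 with SiO2 NP (both SD, n = 4).

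At 1/10 LC50, with samples that the choice did not use, the positive members did not lie on the positive side under ZnSO4. Their group medians had a median of -0.084 (93 of 97 with a value), 32 of them positive and 61 negative, while 57.1% of all probes were positive and the median over all probes was 0.022. The negative members had a median of 0.029 under ZnSO4, with 32 positive and 20 negative. In exposures 1 to 3 the positive members had medians of -0.094, 0.011 and -0.15 and the negative members -0.0039, -0.0012 and 0.18, so exposure 3 carried most of the difference between the classes. All 3 exposures were negative in 25 of 87 positive members with 3 values (28.7%), against 10.1% of all probes, and all 3 were positive in 4 (4.60%), against 15.6%. Among 52 negative members, 7 were positive and 1 was negative in all 3 exposures. These counts describe members that share arrays and are not independent of each other.

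With ZnO NP at 1/10 LC50, the positive members had medians of 0.10, 0.13, 0.15 and -0.26 in exposures 1 to 4, with exposure 4 alone on the negative side. The negative members had -0.10, -0.015, -0.033 and 0.070. Of positive members with 4 values, 5 of 78 were positive in every exposure and 5 negative, against 8.72% and 6.83% of all probes. With SiO2 NP at 1/10 LC50, the positive members had 0.089, 0.022 and -0.038 and the negative members -0.037, -0.021 and 0.057. All 3 exposures were positive in 15 of 88 positive members, against 12.6% of all probes, and negative in 6, against 11.2%.

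No member passed the threshold at 1/10 LC50. Group means were tested against 0 with limma in one fit over all 6 groups, with Benjamini-Hochberg adjustment over 5495 probes and a threshold of 0.05. Of the members 138 could be tested (86 positive, 52 negative), and 12 lacked values. Under ZnSO4 0 of 138 members passed, where 0.0182% of all probes did, and 3 had an unadjusted p below 0.05 (2.17%), against 2.13% of all probes. All 3 had negative ratios, a call that 1.22% of all probes met. For ZnO NP 0 passed, as 0% of all probes did, and 4 lay below an unadjusted 0.05 (2.90%), against 4.79%. For SiO2 NP 0 passed, again with 0% of all probes, and 1 lay below (0.725%), against 0.819%. The median 95% half-widths of the members were 0.42, 0.41 and 0.43, against 0.32, 0.30 and 0.32 over all probes, and over the negative members alone 0.33, 0.31 and 0.33.

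The member with the lowest p under ZnSO4 at 1/10 LC50 was A4H15, a positive member with a negative ratio there. Its exposures had -1.16, -1.56 and -1.10, a mean of -1.27 ± 0.25 (SD, n = 3), with no overlap with its ZnO NP values of -0.55, 0.77, 0.56 and -0.80 or its SiO2 NP values of -0.057, -0.67 and -0.75. The fitted ratio was -1.27 ± 0.26 (SE), with an adjusted p of 0.197 in limma. Over the alternatives that adjusted p ranged from 0.0509 to 0.999, and read as Cy5 over Cy3 the ratio was 0.48. At the LC25 the same probe had -0.58, 0.57, 0.55 and 0.98 in ZnSO4 exposures 2 to 5 and no value in exposure 1. The positive ratio with the lowest p was that of A6L14, at 0.47, 0.23 and 0.019 (fitted 0.24 ± 0.15 SE, adjusted p = 1.00 in limma).

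Under ZnO NP at 1/10 LC50, P13BG7 had 0.42, 0.61, 0.22 and 0.15, positive in every exposure (fitted 0.43 ± 0.15 SE, adjusted p = 0.732 in limma). P13DG2 had -0.40, -0.064, -1.74 and -0.39, negative in every exposure with exposure 3 far below the others (fitted -0.70 ± 0.29 SE, adjusted p = 0.996). Under SiO2 NP at that level, P11BD2 had 0.31, -0.040 and 1.74 and A2K1 had -0.92, -0.62 and 0.060, both with 1 exposure of the other sign (adjusted p = 1.00 in limma for both). P11BD2 also had the largest absolute ZnSO4 median of all members, -1.34, from -0.74, -0.49, -1.95 and -1.94 in exposures 1, 3, 4 and 5.

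Compared directly at 1/10 LC50, ZnSO4 differed from ZnO NP at 0 of 138 members (0% of all probes passed; 4 members with an unadjusted p below 0.05, or 2.90%, against 1.66%), and from SiO2 NP at 0 (0%; 1 member, or 0.725%, against 1.35%). The median half-widths of these differences were 0.59 and 0.61, at 0.64 and 0.65 for positive and 0.45 and 0.46 for negative members, and members with smaller half-widths could show smaller differences. The lowest p in both comparisons was that of A4H15, with fitted differences of -1.09 ± 0.36 and -0.78 ± 0.37 (SE, adjusted p = 1.00 in limma for both). On the positive side stood P10DD10 against ZnO NP, with a difference of 0.39 ± 0.17 (SE), and P4BC11 against SiO2 NP, with 0.32 ± 0.19 (SE). P4BC11 had 0.17, 0.22 and 0.18 under ZnSO4 and -0.25, -0.13 and -0.0070 under SiO2 NP, so the groups did not overlap, but the difference did not pass (adjusted p = 1.00 in limma).

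The positive members varied together in samples outside the choice. Over the 10 exposures at 1/10 LC50, pairs among 75 positive members with all values had a median Pearson r of 0.32 (quartiles 0.031 and 0.55), and pairs among 48 negative members 0.11. Pairs of a positive and a negative member had -0.14, and pairs of all 4800 probes 0.0085. Members of one array share its dye orientation, any centring and any common control RNA, so these coefficients are descriptive and carry no p-value. Of all 97 positive members, 56 also lay on plates whose names begin with A, which held 25.9% of the 5664 probes. The part of the plates in these coefficients was not tested.

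The members were unevenly spread over the plates named in the probe identifiers. The 7 plates whose names begin with A held 1469 of the 5664 probes (25.9%) and 59 of the 150 members (39.3%). Of these 59, 56 were positive, whereas the 13 plates beginning with P gave 41 positive and 50 negative members. The same leaning was found over all probes, since 61.8% of probes on A plates and 33.3% on P plates had a positive ZnSO4 median at the LC25, with medians of 0.066 and -0.078. Plate A1 held the most members, 21 of 340 probes (6.18%), 20 of them positive, and P11 held 13, of which 12 were negative. With plate medians subtracted on each array, 67 of the 150 members were chosen again. Of the 150 chosen in that setting, 33 of 54 on A plates (61.1%) and 84 of 96 on P plates (87.5%) were positive, against 94.9% and 45.1% with the values as deposited, so the leaning between the plate series was turned. What the plate series stand for is not given in the sources used here, and their part in the result was not tested beyond that setting.

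Positive members also had more missing values. A value in all 23 exposures was found for 38 of 97 positive members (39.2%) and 37 of 53 negative members (69.8%), against 48.7% of the 5664 probes. When values in every LC25 exposure were asked for, 383 probes met the rule, 83 members were chosen again, and the division turned to 71 positive and 79 negative. Missing values thus moved with the sign of the members. They also moved with the plate series, since 1469 of 2688 probes on A plates and 4195 of 4992 on P plates had the values asked for. A plates held 56 of the 97 positive and 3 of the 53 negative members. Missing values, plate series and sign were not separated, and their part in the result was not tested.

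Where ZnSO4 was measured with exchanged dyes, in exposure 4 at the LC25, both arrays showed the same division. Both arrays entered the values that chose and signed the members, so their agreement over members is not independent of the choice. The array with exposed RNA in Cy3 gave medians of 0.51 for positive and -0.47 for negative members, and that with Cy5 gave 0.34 and -0.32. Of 123 members valued on both arrays, 103 had the same sign, at r = 0.637 across members, against 0.492 over all probes. Other pairs did not agree. Of the 13 dye-swapped pairs 3 correlated below 0 across members, SiO2 NP exposure 1 at the LC25 (r = -0.456) and exposure 1 of SiO2 NP and of ZnO NP at 1/10 LC50 (-0.330 and -0.208). Over all probes their r was -0.258, -0.298 and -0.207, and ZnSO4 exposure 1 at 1/10 LC50 also lay below 0 (-0.120). In ZnSO4 exposures 1 to 3 at 1/10 LC50 r was 0.0029, 0.30 and 0.20 across members, and in exposure 3 the positive members had -0.47 with exposed RNA in Cy3 and 0.033 in Cy5. The value of -0.15 for that exposure therefore came mainly from 1 of its 2 arrays.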

How the data were processed

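The authors deposited one log ratio per probe and array, read here as log2 values; the labels and the table state no scanner, background correction, normalization, filter or numerator. All arrays were assumed to run in the same direction whatever their dyes, with Cy5 over Cy3 as an alternative. The members and lists were chosen with earlier results of these data known. Exposures were numbered as in the titles, which give 3 to 5 per group, and arrays of one exposure were averaged.

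Tests used limma 3.58.1 in R 4.3.3 (lmFit, eBayes), two-sided, on probes valued in 2 or more exposures per group. The design held 6 group means and a dye term of 1, -1 or 0 for a single Cy5 array, a single Cy3 array or a pair. Contrasts were refitted. Rule and fits were tested on simulated data. The labels do not say whether exposures had their own control RNA, so p-values may leave out part of the spread between controls. The number of arrays limits the precision.

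Named probes were the 2 members per sign with the largest ZnSO4 LC25 median and 5 values, the steadiest member per sign, and, per comparison, the lowest p per sign where none passed. Alternatives changed the cut, the average, missing values, scaling, centring, dye term, prior, groups fitted, replicate block and exposures left out. The gene lists planned were not used because no probe had a gene name.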

Additional observations from a re-analysis of the deposited data

Results flagged for a closer look

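In groups of 4 or 5 exposures, 60 sets of values were examined for an exposure far from the others, and 8 were found. Chance marks about 1 in 20 independent sets, but these sets share arrays and 6 of the 8 lie in LC25 exposures, from which the members were chosen, so that rate is no measure for them. In the ZnSO4 LC25 group exposure 3 stood apart for the median of the negative members, at 0.14, and for the negative member P10DD10, at 0.15. It also stood apart among the left-out exposures, at -0.28. In the ZnO NP LC25 group exposure 3 stood apart for the median of the negative members, at 0.18, and exposure 2 for P10CB4, at -0.59, and for P11BD2, at -1.05. In the ZnO NP group at 1/10 LC50 exposure 4 stood apart for the median of the positive members, at -0.26, and for A5H13, at -0.25.

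Pairs of groups were compared for the class medians and the named probes only. In 2 of 144 pairs every exposure of one group was positive and every exposure of the other negative. Both were between ZnSO4 and SiO2 NP at 1/10 LC50. The 2 probes, A6L14 and P4BC11, had been named for low p-values of ZnSO4 at that level, so the separation partly restates that choice. The share over all probes was not computed. The means differed by 0.31 for A6L14 and by 0.32 for P4BC11. Neither passed in limma (adjusted p = 1.00 for both).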

How the results depend on the processing

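The 0 members past the threshold at 1/10 LC50 stayed 0 in all 5 comparisons under every alternative run, including the exposure number as a replicate block (0 in each). Exposures of the same number were not shown to be paired, since their deviations correlated at a median of -0.019, against -0.0059 for other numbers, and only 17 of 51 pairs exceeded 0.1. The choice of members was less stable. Before the limit of 150, 677 probes met the rule, 383 with values in every LC25 exposure and 388 to 871 when single exposures were left out; without a limit there were 677 members. Of the 150, between 17 (read as Cy5 over Cy3) and 125 were chosen again, and the positive share ranged from 41.3% to 82.0%. The signed median at 1/10 LC50 was -0.062 for ZnSO4, 0.046 for ZnO NP and 0.010 for SiO2 NP, with ranges of -0.11 to -0.046, 0.020 to 0.095 and -0.0080 to 0.074 over exposures left out. The left-out ZnSO4 value ranged from -0.28 to 0.25 and was -0.029 in the median for Cy5 over Cy3, against 0.21. That reading turned 7 fitted ratios: A6L14 to -0.11 and A4H15 to 0.48 (ZnSO4), P13BG7 to -0.043 and P13DG2 to 0.59 (ZnO NP), A4H15 to 0.77 and P10DD10 to -0.025 (ZnSO4 against ZnO NP), and A4H15 to 0.18 (ZnSO4 against SiO2 NP). The cause was not tested. Leaving out the 4 arrays with the fewest values and subtracting plate medians were chosen after seeing the data, and 86 and 67 members were chosen again.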
